A study of Rattus with 12 samples.

Results

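Adenylyl cyclases are the enzymes that make the second messenger cAMP from ATP, and they are among the first targets of opioid receptor signaling. The isoforms were chosen by their gene symbols and not by a rule on measured values, though earlier results of these data were known. The rule names 8 isoforms, of which Adcy1, Adcy2, Adcy3, Adcy5, Adcy6, Adcy7 and Adcy8 were analysed, 7 genes of the 17337 listed in the count table. Adcy9 was not analysed here. Each of the 7 passed the filter on low counts, which kept 12271 genes.

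The study asked how fentanyl, a synthetic opioid, affects cultured brain cells. RNA was sequenced from 12 co-cultures of cortical neurons, astrocytes and oligodendrocyte precursor cells (OPCs), all prepared from Sprague Dawley rats and all harvested after a 4 day treatment period. There were 4 cultures without fentanyl (untreated, with letters A, G, M and P), 4 with 0.01 μM fentanyl (low dose, with letters B, H, N and Q) and 4 with 10 μM fentanyl (high dose, with letters C, I, O and R). The cultures hold purchased primary cells mixed in a dish, and no source used here says which of them share a cell preparation, so p-values measure the spread between these 12 cultures, which may in part be technical.

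The comparisons are written low vs. untreated, high vs. untreated and high vs. low. Total counts of the cultures lay between 12059872 and 24813893. Levels are given as CPM (counts per 1000000 counts of the culture, with library sizes scaled by TMM), and they were compared only within a gene, since transcript lengths were not used. Letters that follow each other form 4 letter sets (written ABC, GHI, MNO and PQR), each with 1 culture of every condition. Across all genes tested, a median of 55.7% of the variance lay between letter sets and 8.70% between doses. What the letters stand for is not given in the sources used here, so differences within the sets are shown beside the pooled ones. Untreated culture G stands apart. Its summed level of 12 neuron markers was 268 CPM, against 3146 to 4753 CPM in the other 11 cultures, and Rbfox3, a nuclear protein of mature neurons, reached 20 counts there and 714 to 2019 elsewhere. In RNA of a whole culture, fewer cells of a type and less RNA per cell cannot be told apart.

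Mu-opioid receptors, which fentanyl activates, couple to inhibitory G proteins. The alpha subunits of these proteins inhibit several cyclases, while the beta-gamma subunits released with them inhibit some isoforms and stimulate others. Sustained opioid exposure is known for a compensating increase in cyclase activity that depends on the isoform. Membrane cyclases are grouped by these inputs into those stimulated by calcium and calmodulin (Adcy1, Adcy3, Adcy8), those stimulated by beta-gamma subunits (Adcy2, Adcy7) and those inhibited by calcium (Adcy5, Adcy6).

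Among the groups of cyclases, the one stimulated by calcium and calmodulin differed most in level between the low and the high dose, and its members did not differ in one direction. Adcy1 was higher and Adcy8 lower at the high dose in each letter set, and Adcy3 was lower in 3 of 4 sets. None of these differences was called, and the values of each gene follow.

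Adcy1, a cyclase of neurons that takes part in synaptic plasticity, was at 129, 8.36, 155 and 118 CPM in untreated cultures A, G, M and P. The level was 115, 76.3, 119.9 and 103 CPM in low dose cultures B, H, N and Q, and 136, 152, 151 and 148 CPM in high dose cultures C, I, O and R. Every high dose culture lay above every low dose culture, while the untreated cultures overlapped both. The means of the untreated, low dose and high dose cultures were 102.5 ± 64.7, 103.5 ± 19.5 and 147 ± 7.48 CPM (SD, n = 4 each). The log2 fold change of Adcy1 in high vs. low was 0.48 (SE 0.37, adjusted p = 1.0 from edgeR). The difference in log2(CPM + 1) was 0.52 and had an exact two-sided permutation p of 0.0286, the smallest that 4 against 4 cultures can give, and an adjusted p of 1.0 over all genes tested. Within the letter sets the difference was 0.24 (ABC), 0.98 (GHI), 0.33 (MNO) and 0.52 (PQR). Of all genes tested, 0.668% had every high dose culture above every low dose culture, and 11.7% were higher in all 4 sets. The sum of the 12 neuron markers was also higher at the high dose in all 4 sets. It was 4278, 4254, 3427 and 3146 CPM in low dose cultures B, H, N and Q, and 4669, 4693, 4240 and 3873 CPM in high dose cultures C, I, O and R. The part of neurons in the difference of Adcy1 was not tested.

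Adcy8, a calcium sensor of neurons that is closely related in function to Adcy1, was at 13.9, 1.17, 16.4 and 25.1 CPM in untreated cultures A, G, M and P. At the low dose it was at 15.8, 26.6, 26.4 and 21.7 CPM in B, H, N and Q, and at the high dose at 13.1, 15.4, 16.6 and 14.0 CPM in C, I, O and R. The high dose cultures lay in a narrow range at the lower end of the low dose range, and only O was above the lowest low dose culture, B. The means of the untreated, low dose and high dose cultures were 14.2 ± 9.90, 22.6 ± 5.11 and 14.8 ± 1.53 CPM (SD, n = 4 each). The log2 fold change of Adcy8 in high vs. low was -0.63 (SE 0.39, adjusted p = 1.0 from edgeR). The exact two-sided permutation p was 0.0571, with an adjusted p of 1.0 over all genes tested. Adcy8 was lower at the high dose by 0.25 in ABC, 0.75 in GHI, 0.64 in MNO and 0.59 in PQR on the log2(CPM + 1) scale, opposite to the neuron marker sum. Of all genes tested, 11.1% were lower in all 4 sets.

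Counts of Adcy1 were 9.07 to 10.6 times those of Adcy8 in the high dose cultures, 2.87 to 7.29 times in the low dose cultures and 4.69 to 9.44 times in the untreated cultures. This ratio of read counts does not depend on library scaling, and it was chosen after the values were seen, so it was not tested. The lowest ratio of the high dose cultures was that of O, and in low dose cultures it was highest in B and lowest in H.

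Adcy3, known from olfactory neurons and from the primary cilia of neurons, was at 51.0, 24.2, 49.5 and 64.3 CPM in untreated cultures A, G, M and P. It was at 52.5, 63.0, 63.7 and 70.5 CPM in low dose cultures B, H, N and Q, and at 52.6, 51.8, 48.7 and 50.9 CPM in high dose cultures C, I, O and R. The low dose cultures H, N and Q were above every high dose culture, and B and C were nearly level. The means of the untreated, low dose and high dose cultures were 47.2 ± 16.8, 62.5 ± 7.43 and 51.0 ± 1.67 CPM (SD, n = 4 each). The log2 fold change of Adcy3 was 0.31 (SE 0.13) in low vs. untreated and -0.29 (SE 0.13) in high vs. low, each with an adjusted p of 1.0 (edgeR). Its unadjusted p from edgeR was 0.0398 and 0.0480 in these comparisons. In low vs. untreated the value was 0.20 (p 0.0639) without G, 0.21 (p 0.174) without N and 0.48 (p 0.0127) without P, all unadjusted from edgeR. In high vs. low the unadjusted p of Adcy3 ranged from 0.00730 (without B) to 0.143 (without N) as each culture was left out. Relative to its untreated culture, the low dose culture was higher by 0.04 in ABC, 1.35 in GHI, 0.36 in MNO and 0.13 in PQR on the same scale. Of all genes tested, 4.06% were higher at the low dose in all 4 sets.

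**Figure D1:**
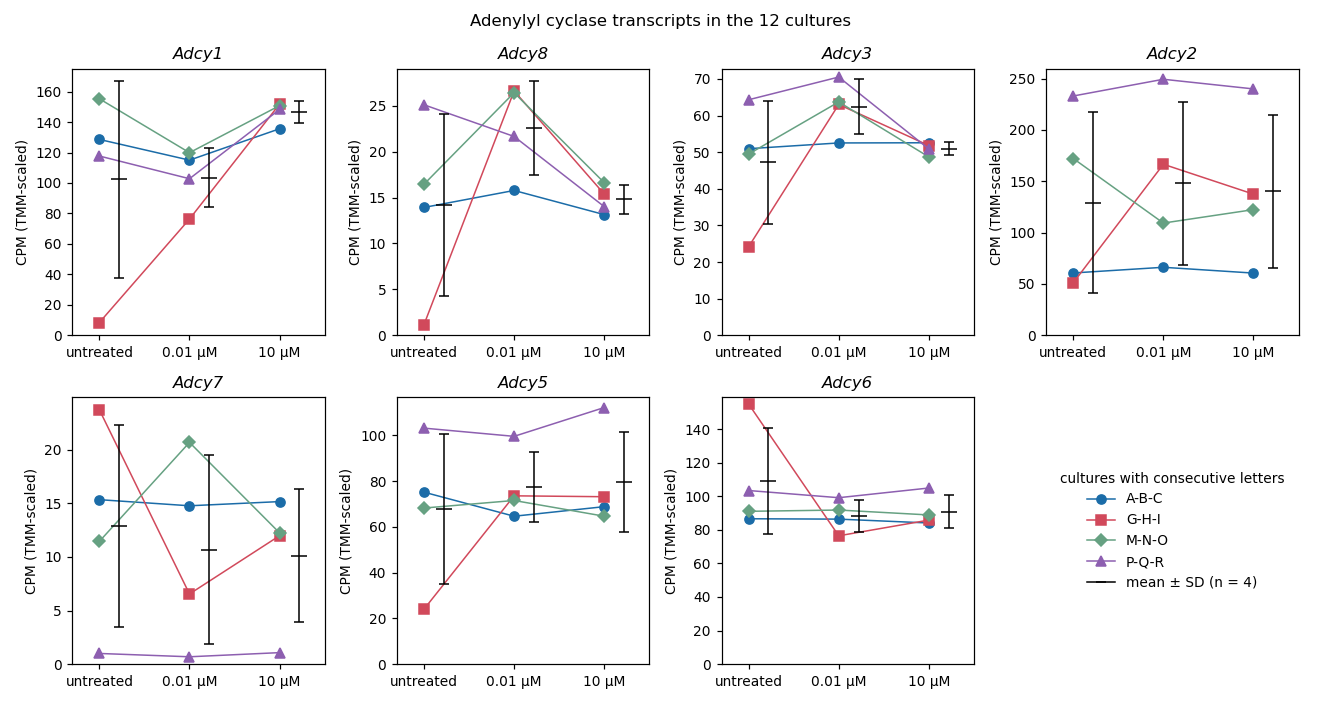
Level of each of the 7 cyclases in CPM (y axis, linear, from 0) by condition (x axis), with 1 point per culture, lines joining the cultures of a letter set, and black bars for the mean ± SD of 4 cultures. The Adcy1 points at 10 μM sit at 136 to 152 CPM, above the 76.3 to 119.9 CPM at 0.01 μM, and the PQR points of Adcy7 lie near 1 CPM at each dose.

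Adcy2, which is stimulated by beta-gamma subunits, was set apart by letter set rather than by dose. It was at 60.6 to 66.2 CPM in ABC and at 233 to 249 CPM in PQR, without overlap with the other cultures except that untreated G, at 51.1 CPM, lay below ABC. The remaining cultures had 167 CPM (low dose H), 137 CPM (high dose I), 172 CPM (untreated M), 109 CPM (low dose N) and 122 CPM (high dose O). By dose the means of the untreated, low dose and high dose cultures were 129 ± 88.4, 148 ± 79.2 and 140.1 ± 74.4 CPM (SD, n = 4 each), and the ranges overlapped almost fully. The log2 fold change of Adcy2 lay between -0.06 and 0.03 in the 3 comparisons, with standard errors of 0.51 to 0.54. Sums of oligodendrocyte lineage markers were also low in ABC. In G the OPC sum was not low, while the oligodendrocyte sum was the lowest outside ABC. The 6 OPC markers summed to 267 to 343 CPM in ABC and 737 to 1254 CPM in the other sets without G, and G, with the lowest Adcy2 level, had the highest OPC sum at 1286 CPM. The 8 oligodendrocyte markers summed to 3027 to 4578 CPM in ABC and 7432 CPM in G, and their highest sums were 26040 CPM in H and 22530 CPM in I rather than in PQR, which had 18210 to 21660 CPM. The 10 astrocyte markers summed to 8421 to 11940 CPM in PQR and 2240 to 8118 CPM in the other sets, where the highest was G. The part of these cell types in the level of Adcy2 was not tested.

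Adcy7, also stimulated by beta-gamma subunits and known from blood and immune cells, had 12, 10 and 26 counts in cultures P, Q and R. The exact 95% Poisson intervals of these counts were 6.20 to 21.0, 4.80 to 18.4 and 17.0 to 38.1, which cover counting error only. These counts equal 0.997, 0.687 and 1.07 CPM, while the other 9 cultures had 6.54 to 23.7 CPM. Every culture of PQR was thus below every other culture, at each dose. The microglial list was also low in PQR. All 10 of its markers were tested, and their sum was 36.6 to 44.5 CPM in PQR and 310 to 1245 CPM in the other sets. Single markers varied. Cx3cr1, a defining receptor of microglia, had 1, 1 and 0 counts in P, Q and R, but also only 9 in G. P2ry12 was not lower in PQR than in ABC, with 11, 11 and 18 counts in P, Q and R and 7, 14 and 26 in A, B and C. Untreated G and low dose N, which had the highest Adcy7 levels at 23.7 and 20.7 CPM, also had the highest microglial sums, at 1116 and 1245 CPM, whereas low dose H had the lowest Adcy7 level outside PQR with a sum of 622 CPM. In ABC, Adcy7 was at 14.8 to 15.3 CPM beside the lowest microglial sums outside PQR, 310 to 464 CPM. Untreated M and high dose I and O had less Adcy7, at 11.45, 11.98 and 12.24 CPM. Their microglial sums were higher, at 545, 826 and 842 CPM. The part of microglia in the Adcy7 level was not tested. By dose the means of the untreated, low dose and high dose cultures were 12.9 ± 9.43, 10.7 ± 8.82 and 10.1 ± 6.20 CPM (SD, n = 4 each), and the log2 fold change of Adcy7 was between -0.04 and 0.08 with standard errors of 0.96 to 0.97.

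Adcy5, the leading cyclase of the striatum and inhibited by calcium, was at 75.2, 24.0, 68.3 and 103 CPM in untreated cultures A, G, M and P, at 64.7, 73.6, 71.6 and 99.6 CPM in low dose cultures B, H, N and Q, and at 68.9, 73.2, 64.7 and 112 CPM in high dose cultures C, I, O and R. Outside G, the level differed by letter set, with PQR at 99.6 to 112 CPM and the other 8 cultures at 64.7 to 75.2 CPM. The log2 fold change of Adcy5 was 0.07 (SE 0.18) in low vs. untreated, 0.11 (SE 0.18) in high vs. untreated and 0.04 (SE 0.18) in high vs. low.

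Adcy6, the close relative of Adcy5 that most tissues express, was the most even of the 7. Without G it ranged from 76.4 CPM in low dose H to 105 CPM in high dose R, and G had 155 CPM. The means of the untreated, low dose and high dose cultures were 109 ± 31.4, 88.4 ± 9.55 and 90.9 ± 9.53 CPM (SD, n = 4 each), where the untreated mean was 93.7 ± 8.71 CPM (SD, n = 3) without G. The log2 fold change of Adcy6 was -0.16 (SE 0.13) in low vs. untreated, -0.13 (SE 0.13) in high vs. untreated and 0.04 (SE 0.13) in high vs. low. The adjusted p of Adcy2, Adcy5, Adcy6 and Adcy7 was 1.0 in each comparison (edgeR).

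Untreated culture G, with few neuron transcripts, gave another grouping of the isoforms. Adcy1 and Adcy8 were lowest relative to the other cultures, with a median of the other 11 cultures that was 15.4 and 14.1 times the level in G. Adcy5, Adcy2 and Adcy3 were also below all other cultures, with ratios of 3.04, 2.69 and 2.17. Adcy7 and Adcy6 were above all other cultures, at 1.98 and 1.74 times the median of the others. Of all genes tested, G was the lowest culture for 28.4% and the highest for 27.7%, so an extreme level in G was common. Beside the low neuron markers, the sum in G was 1749 CPM for 7 fibroblast and mural markers, where only low dose N was higher at 3000 CPM and the other cultures had 63.5 to 495 CPM. The 6 endothelial markers summed to 58.1 CPM in G and 3.23 to 12.5 CPM in the others. The part of these cell types in the cyclase levels was not tested.

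**Figure D2:**
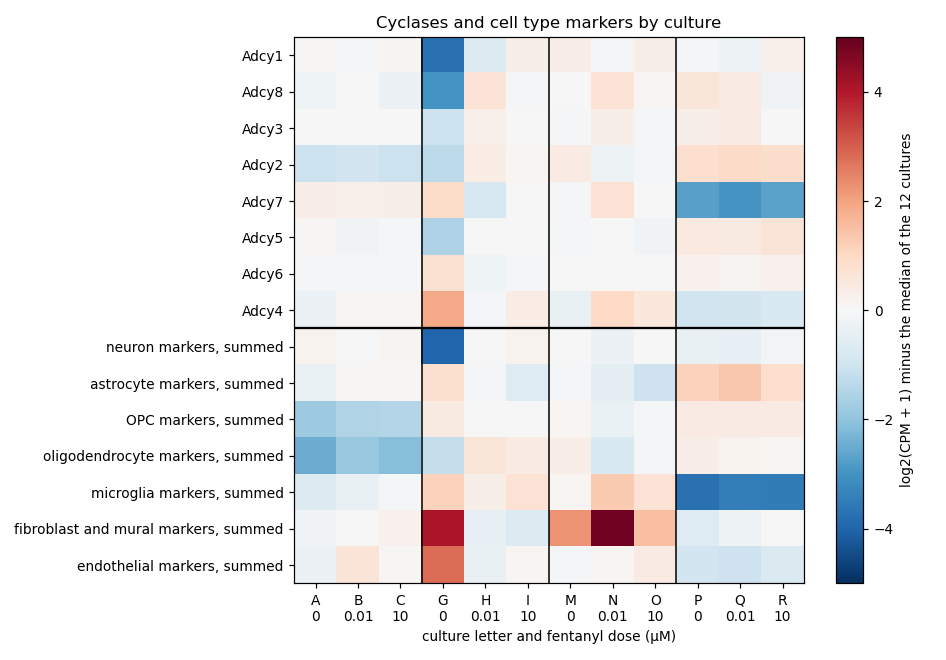
Levels of 8 cyclases (top) and summed marker lists of 7 cell types (bottom) in the 12 cultures, ordered by letter set with the dose in μM under each letter, where color is log2(CPM + 1) minus the median of the 12 cultures. Adcy1 and Adcy8 are lowest in G together with the neuron markers, and Adcy7 is lowest in P, Q and R together with the microglia markers.

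The thresholds of the study ask for a log2 fold change beyond 0.5, up or down, and an adjusted p below 0.05. In each of the 3 comparisons 0 of the 7 cyclases met both (edgeR). Of all genes tested, 0% were called in each comparison. The study itself reported genes past these thresholds in each of the 3 comparisons, so this fit did not reproduce its calls. An unadjusted p under 0.05 was reached by Adcy3 alone among the 7. In low vs. untreated Adcy3 was higher, as were 0.546% of all genes tested, while 0.196% were lower. In high vs. low it was lower, as were 0.595%, while 0.579% were higher. In high vs. untreated 0 of the 7 reached it, beside 0.921% of all genes higher and 0.269% lower. Without overlap between conditions, Adcy1 was the only one of the 7, in high vs. low. Of all genes tested, 0.196% lay above and 0.212% below without overlap in low vs. untreated, 0.359% and 0.326% in high vs. untreated, and 0.668% and 0.522% in high vs. low. Adcy3 was the only one of the 7 that differed in one direction in all 4 sets in low vs. untreated, where 4.06% of all genes were higher and 5.28% lower in all 4, and 0 of the 7 did in high vs. untreated, where 5.22% of all genes were higher and 5.22% lower. A log2 fold change above 0 was found for 6 of the 7 in low vs. untreated, 5 in high vs. untreated and 3 in high vs. low, beside 53.4%, 50.8% and 47.6% of all genes. The median log2 fold change of the 7 was 0.07 in low vs. untreated, 0.05 in high vs. untreated and -0.04 in high vs. low, beside medians of 0.01, 0.00 and -0.01 over all genes tested. The first and second comparison share the untreated cultures.

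The values of Adcy1 and Adcy8 depended on single cultures, among them untreated G, M and P and low dose N. In low vs. untreated, the log2 fold change of Adcy8 was 0.78 (SE 0.39) and that of Adcy1 0.07 (SE 0.37). Without G they were 0.35 and -0.38, and without N 0.33 and -0.40. For high vs. low the value of Adcy8 was -0.28 and that of Adcy1 0.86 without N. In high vs. untreated, Adcy1 had a log2 fold change of 0.55 (SE 0.37) and Adcy8 of 0.15 (SE 0.39), and without G they were 0.13 and -0.25. Without M, Adcy1 was at 1.0 in high vs. untreated (unadjusted p 0.0265, adjusted p 1.0, edgeR) and at 0.51 in low vs. untreated. Without P, Adcy8 was at 0.46 in high vs. untreated and at 1.11 in low vs. untreated. The adjusted p of each was 1.0 with all cultures (edgeR). Within the sets other than GHI, Adcy1 was lower at the low dose than in the untreated culture by 0.16, 0.37 and 0.19 in ABC, MNO and PQR, and higher by 3.05 in GHI, on the log2(CPM + 1) scale. At the high dose it differed from untreated by 0.08, -0.04 and 0.33 in the same sets and by 4.03 in GHI.

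**Figure D3:**
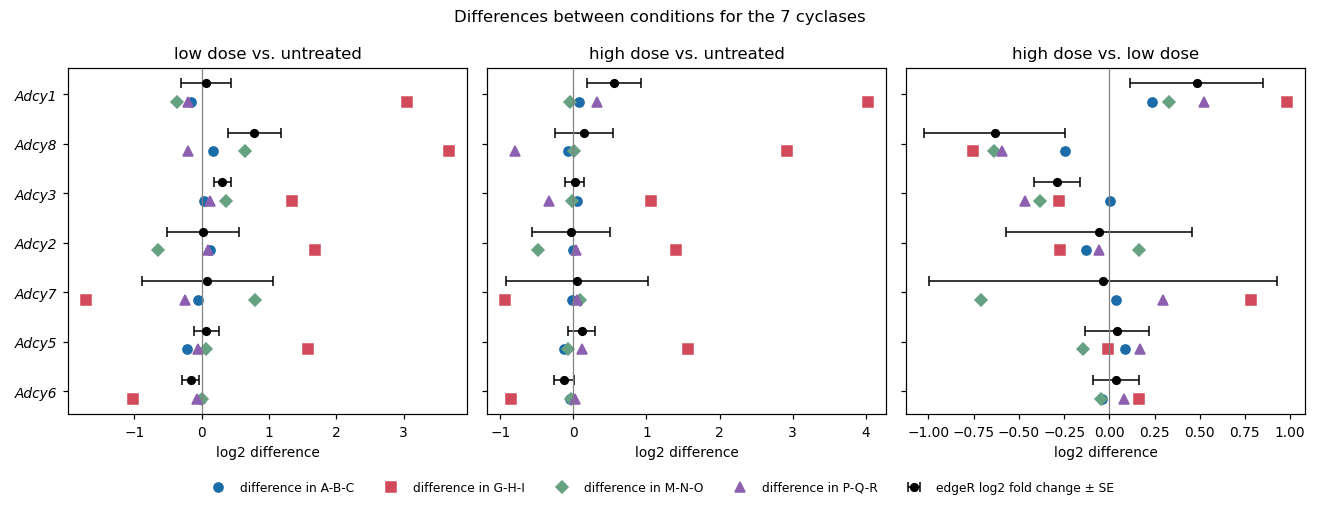
Log2 differences of the 7 cyclases (rows) in the 3 comparisons (panels, each with its own x axis), with black points for the edgeR log2 fold change ± SE and colored points for the difference in log2(CPM + 1) within each letter set. In high vs. low the 4 sets of Adcy1 lie at 0.24 to 0.98 and those of Adcy8 below 0, while in the comparisons with untreated cultures the GHI points of Adcy1 and Adcy8 lie far from the other sets.

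The comparison high vs. low does not use culture G directly. With a replicate block by letter set in place of the factor of unwanted variation and G left out, the log2 fold change was 0.52 (SE 0.11) for Adcy1, -0.60 (SE 0.15) for Adcy8 and -0.29 (SE 0.08) for Adcy3. The unadjusted p was 0.000993, 0.00321 and 0.00743, and the adjusted p was 0.115, 0.154 and 0.190 (edgeR), so none passed the threshold. In this fit 0.113% of all genes were called, and an unadjusted p under 0.05 was reached by 7.75% in the direction of Adcy1 and 5.85% in that of Adcy3 and Adcy8. With G kept in the blocked fit, the adjusted p of each was 1.0. Over all 20 alternatives the adjusted p ranged up to 1.0, with these 3 values as the lowest.

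Without the set GHI, the doses held 62.8% of the variance of Adcy1 between the 9 remaining cultures, 40.3% for Adcy3 and 35.9% for Adcy8, where the median of all genes tested was 6.88%. Over all 12 cultures these shares were 17.5%, 27.8% and 22.1%, beside a median of 8.70%. Without GHI, for Adcy2, Adcy5, Adcy6 and Adcy7 the doses held 0.245% to 0.855% and the letter sets 93.7% to 97.7%, beside a median of 76.1% for the letter sets over all genes. Over all 12 cultures the doses held 2.82% for Adcy2, 10.3% for Adcy5, 22.5% for Adcy6 and 0.867% for Adcy7, and the letter sets 75.4%, 48.9%, 18.4% and 91.2%. These shares are a description and were not tested.

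Of the cyclases outside the 7, Adcy4, known from blood vessels, had 1 to 109 counts per culture. It was highest in G at 7.07 CPM and in low dose N at 3.33 CPM. These cultures had the highest sums of the fibroblast and mural markers and also of the microglial markers. Adcy4 was lowest in P, Q and R at 0.0831, 0.137 and 0.289 CPM, the cultures with the lowest microglial sums. The lowest fibroblast and mural sum was in high dose I, with Adcy4 at 1.80 CPM. The endothelial marker sum was also highest in G, at 58.1 CPM, and lowest in P, Q and R, at 3.49, 3.23 and 4.215 CPM. In N it was 8.22 CPM, below low dose B at 12.5 CPM and high dose O at 10.4 CPM. The part of these cell types in the Adcy4 level was not tested. Adcy10, the soluble cyclase that bicarbonate activates, had 17 to 36 counts and 0.951 to 1.89 CPM, and G was within the range of the other cultures. Their adjusted p was 1.0 in each comparison (edgeR).

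The other genes of the cAMP pathway were taken from a list of 62 genes by role, of which 58 were tested. At the thresholds 0 of the 58 were called in each comparison. An unadjusted p under 0.05 was reached by 0 in low vs. untreated, 0 in high vs. untreated and 3 in high vs. low, each of the 3 higher at the high dose, as were 0.579% of all genes tested. The median log2 fold change of the list was 0.03, 0.07 and 0.04 in these comparisons.

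Those 3 genes were Crtc1, Akap9 and Creb1. Crtc1, a coactivator that moves to the nucleus when cAMP and calcium rise, was at 29.7 to 36.8 CPM in high dose and 23.6 to 29.2 CPM in low dose cultures, without overlap (log2 fold change 0.31, SE 0.12, adjusted p = 1.0 from edgeR). Akap9, a scaffold that anchors protein kinase A (PKA) at the Golgi and centrosome, was at 103.9 to 131 CPM and 62.0 to 102.7 CPM, also without overlap (log2 fold change 0.40, SE 0.17). Both were higher in each letter set, by 0.15 to 0.45 for Crtc1 and 0.13 to 0.76 for Akap9. Creb1, the transcription factor that PKA phosphorylates, was at 11.1 to 14.0 CPM in high dose and 6.61 to 11.6 CPM in low dose cultures (log2 fold change 0.40, SE 0.18). Each low dose culture was also below each untreated culture, which had 11.8 to 12.5 CPM of Creb1, where 0.212% of all genes tested were (log2 fold change -0.30, SE 0.18).

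In high vs. low, 15 of the 58 pathway genes were higher and 5 lower in all 4 letter sets, beside 11.7% and 11.1% of all genes tested. By role, 5 of 8 anchoring proteins were higher in all 4 sets and 1, Akap1, was lower (log2 fold change -0.07). The 5 were Akap5, Akap6, Akap9, Akap11 and Akap13, with log2 fold changes of 0.27 to 0.63. Akap5, which holds PKA and cyclases at postsynaptic sites, was at 37.3 to 67.1 CPM in high dose and 29.8 to 45.2 CPM in low dose cultures (log2 fold change 0.63, SE 0.65). Akap5 is among the genes that the study itself picked on the same cultures, which makes its direction no separate evidence. The genes of this paragraph other than Akap9 were picked after their values were seen, and the adjusted p of each was 1.0 (edgeR).

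The G protein genes that link receptors to the cyclases differed little. The log2 fold changes of the stimulatory G protein genes Gnas and Gnal were between -0.01 and 0.05 over the 3 comparisons, and those of the 5 inhibitory genes (Gnai1, Gnai2, Gnai3, Gnao1 and Gnaz) between -0.12 and 0.15. For the 6 PKA subunits they lay between -0.21 and 0.38. The 15 phosphodiesterases tested, which break down cAMP, ranged from -0.53 to 0.49 in high vs. low, with 3 higher and 1 lower in all 4 letter sets. Their range was -0.40 to 0.37 in low vs. untreated and -0.49 to 0.66 in high vs. untreated. The 6 calmodulin and calmodulin kinase genes lay between 0.03 and 0.28, 0.19 and 0.76, and 0.04 and 0.51 in low vs. untreated, high vs. untreated and high vs. low. The 0.76 was that of Camk2a, which was at 0.13 without G.

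**Figure D4:**
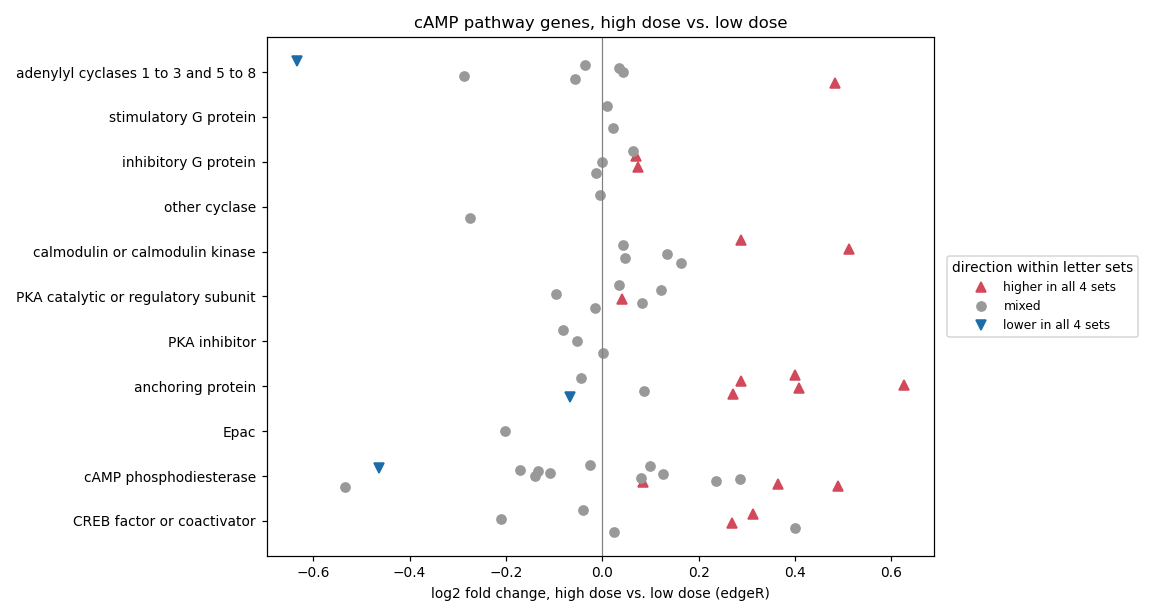
Log2 fold change in high vs. low from edgeR (x axis) for the 7 cyclases and other cAMP pathway genes in 10 groups by role (rows), where each point is 1 gene and its shape and color give the direction within the 4 letter sets. Of the 8 anchoring proteins, 5 were higher and 1 lower in all 4 sets.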

How the data were processed

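Poly(A)-selected libraries were made with a TruSeq kit. The authors aligned reads to rn6, a rat build, using STAR, and assigned them to genes using featureCounts. Deposited were raw counts per gene symbol, and the strand setting and annotation are not given in the sources used here. All 12 columns matched the titles of the 12 cultures. In R 4.3.3, counts were scaled by TMM and genes kept by filterByExpr. As in the study, unwanted variation was removed and edgeR used. Since the number of factors is not stated, 1 RUVs factor, rewritten in R, was taken from the replicates of each condition. This factor was 2.955 in untreated G and -0.703 to 0.490 in the other cultures, so it mainly separated G from them. The edgeR fold changes are adjusted for it and can differ in direction from the means. Adcy7 in low vs. untreated had a log2 fold change of 0.08, with means of 10.7 and 12.9 CPM. All 12 cultures entered the quasi-likelihood test of edgeR 4.0.16, with Benjamini-Hochberg adjustment over all genes. Whether this fit can find a log2 fold change near 0.5 at the spread of these cultures was not tested. Single values were also compared by exact permutation over the 70 arrangements of 4 against 4 cultures, adjusted over all genes.

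The alternatives were no factor, 2 factors, DESeq2 1.42.0, its size factors, no filter, fits on the 8 cultures of a comparison, letter set as a replicate block (with and without G), and each culture left out. The members, gene lists and marker lists were chosen with earlier results of these data known. Named genes were all members, Adcy4 and Adcy10, pathway genes with an unadjusted p under 0.05 or no overlap between conditions, and the 2 genes most like each member, and a few of these items are not reported here. Gene names and roles follow the symbols of the table. The reference table is of another build (GRCr8), so no coordinates are given.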

Additional observations from a re-analysis of the deposited data

Results flagged for a closer look

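In the 21 groups of 4 cultures (7 cyclases in 3 conditions), 2 cultures lay far from the other 3 of their condition on the log2(CPM + 1) scale by Dixon's test, where chance gives about 1 in 20 groups. The level of Adcy1 in untreated G, 8.36 CPM, had a gap to the next culture that was 0.902 of the range of the condition. The level of Adcy7 in high dose R, 1.07 CPM, had a gap of 0.893 of the range. Both exceed the 95% critical value. Culture G also had the fewest neuron marker transcripts, and R belongs to the letter set PQR, in which Adcy7 and the microglial marker sum were low at each dose.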

How the results depend on the processing

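No cyclase and no cAMP pathway gene was called in any of the 20 alternatives. Of 420 alternative values of the 21 log2 fold changes, 360 had the same direction and 60 were reversed, and 7 of the 21 kept their direction throughout: Adcy1 in both comparisons with the high dose, Adcy3 and Adcy8 in both with the low dose, and Adcy6 in low dose vs. untreated. The cause of the reversals was not tested. Over all genes, where 0 were called, 2 factors called 1 in each comparison with the high dose, DESeq2 called 3 against untreated and 1 against the low dose, and the replicate block by letter sets without G called 15 and 14. The replicate block with G called 0.

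Without a factor the log2 fold change reversed to 0.12 for Adcy2 in high dose vs. untreated, and for Adcy7 to -0.35 in that comparison and -0.27 in low dose vs. untreated. With 2 factors these values were 0.19, -0.11 and -0.092. With only the 8 cultures compared, Adcy1 in low dose vs. untreated was -0.00335 and Adcy3 in high dose vs. untreated -0.015. With the replicate block by letter sets, Adcy2 in high dose vs. untreated was 0.15, and Adcy7 was -0.35 for the low and -0.29 for the high dose against untreated, and 0.061 for high against low. With that replicate block and without G, low dose vs. untreated reversed to -0.32 for Adcy1, -0.12 for Adcy2 and -0.060 for Adcy5, high dose vs. untreated to -0.10 for Adcy3, -0.031 for Adcy5, 0.00338 for Adcy6 and -0.35 for Adcy8, and Adcy7 in high dose vs. low dose to 0.066.

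With each culture left out in turn, the ranges in low dose vs. untreated were -0.40 to 0.51 for Adcy1, -0.31 to 0.62 for Adcy2, -0.059 to 0.36 for Adcy5 and -0.53 to 0.70 for Adcy7. In high dose vs. untreated they were -0.34 to 0.55 for Adcy2, -0.075 to 0.18 for Adcy3, -0.057 to 0.40 for Adcy5, -0.59 to 0.69 for Adcy7 and -0.25 to 0.46 for Adcy8. In high dose vs. low dose they were -0.40 to 0.27 for Adcy2, -0.13 to 0.14 for Adcy5, -0.057 to 0.11 for Adcy6 and -0.43 to 0.36 for Adcy7. Among those that kept their direction, Adcy1 in high dose vs. untreated ranged from 0.13 (without G) to 1.0 (without M), Adcy3 in low dose vs. untreated from 0.20 (without G) to 0.48 (without P), and Adcy8 in low dose vs. untreated from 0.33 (without N) to 1.11 (without P). The values for high dose vs. low dose were 0.32 to 0.86 for Adcy1, -0.85 to -0.28 for Adcy8 and -0.37 to -0.21 for Adcy3, with the weakest value of Adcy8 and Adcy3 without low dose N and that of Adcy1 without high dose O. A difference of 0.5 lay within 2 standard errors for Adcy1, Adcy2, Adcy7 and Adcy8, and counts of 10 to 26 limit Adcy7 in PQR.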

Other observations

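The genes whose levels were most like those of each cyclase over the 11 cultures other than G were read off by Pearson's r of log2(CPM + 1), from the highest 2 of all genes tested and with no test, since the cultures share letter sets. For Adcy1 these were Kcnc1, a fast potassium channel of interneurons (r = 0.94), and Hs6st3, a heparan sulfate sulfotransferase (r = 0.94). Both were also low in G, at 2.85 and 0.778 CPM against 20.1 to 27.9 and 38.4 to 72.7 CPM in the others, and r over all 12 cultures was 0.99 for each. Adcy7 was most like Igf1, a growth factor that microglia make (r = 0.99), and Creg1 (r = 0.98). Igf1 ranged from 0.914 to 26.3 CPM over the 11 cultures.

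For Adcy2 the most alike genes were Pigq (r = 1.0) and Phyhipl (r = 0.99), for Adcy3 Prr15 and Pamr1 (r = 0.93 each), for Adcy8 Tars2 (r = 0.92), for Adcy5 Wipi1 and Stk40 (r = 0.96 each) and for Adcy6 Phf12 and Zmiz1 (r = 0.96 each). With levels centered within the letter sets, r was 0.84 for Adcy7 with Igf1, 0.92 for Adcy2 with Pigq and 0.19 for Adcy5 with Stk40. With G included, several values were much lower. Over all 12 cultures r was -0.05 for Adcy5 with Wipi1, 0.33 with Stk40, and 0.65 and 0.40 for Adcy3 with Prr15 and Pamr1. It was 0.41 and 0.76 for Adcy6 with Phf12 and Zmiz1, and 0.57 for Adcy8 with Tars2. For Adcy2 it was 0.78 with Pigq and 0.98 with Phyhipl, and for Adcy7 0.98 with Igf1 and 0.95 with Creg1.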
